A study of Homo sapiens with 12 samples.

Results

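The kallikreins are secreted serine proteases whose genes stand side by side on the long arm of chromosome 19. The 10 members described here, KLK2, KLK3, KLK4, KLK5, KLK6, KLK7, KLK10, KLK11, KLK12 and KLK15, were taken by name and matched to the gene identifiers of the count files, which hold 58381 genes. In GRCh38 they span chromosome 19 from 50825289 to 51035230, or 210 kb. RNA of 2 prostate cancer cell lines was measured in 12 libraries, 3 in each of 4 groups: VCaP-CT given 10 nM testosterone (T) for 48 h, VCaP-CT kept with 0.1 nM T, VCaP-T lowered to 0.1 nM T for 48 h (depleted VCaP-T), and VCaP-T kept with 10 nM T. VCaP is a line from a bone metastasis with a TMPRSS2-ERG fusion. VCaP-T was selected over 7 months at 10 nM T from passage 15 cells, and VCaP-CT was selected from it over 10 months at 0.1 nM T. All groups grew in 10% charcoal-stripped serum, and VCaP-CT was at passage 73 and VCaP-T at passage 84. Each is 1 line, so the effect of low T during selection and other differences in the history of the lines cannot be told apart. The labels do not say whether replicates are separate cultures, so p-values measure only the spread between these libraries, and that may be technical.

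In the prostate, luminal epithelial cells make KLK3 (prostate-specific antigen, PSA) and KLK2 under the control of androgens. KLK3 is a chymotrypsin-like protease that cleaves the semenogelins and so liquefies semen. KLK2, a trypsin-like protease, can remove the propeptide of KLK3, and KLK4 and KLK15 can do the same in purified form. Kallikreins such as KLK5 and KLK7 are best known from skin, where they shed the horny layer, and KLK6 from the brain. The activity of the family is held back by serpins and by Kazal-type inhibitors.

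The libraries held 30.2 to 40.8 M counted fragments, with a median of 35.0 M. The 6 luminal markers, among them KRT8 and KRT18, summed to 3254 to 3814 CPM (counts per M fragments) in every library, against 1.38 to 5.91 for 3 basal, 10.7 to 23.0 for 5 squamous, 32.2 to 57.8 for 3 neuroendocrine, 0.369 to 13.1 for 4 fibroblast, 8.53 to 16.4 for 3 endothelial and at most 0.139 for 3 blood cell markers. The fibroblast markers, of which 1 passed the filter on low counts, followed the lines, with 0.369 to 1.61 in the VCaP-CT libraries and 5.004 to 13.1 in the VCaP-T libraries, and their part in the results was not tested. Replicate 2 of depleted VCaP-T stood apart, with correlations of 0.965 and 0.970 to its sister libraries, where all other pairs of replicates reached at least 0.993. The tests of the members and the ratios that use its group are also given without it. For the gene lists this holds for most counts of called genes on depletion and for some single genes. Leaving it out was chosen after seeing the data for the ratios and lists. In bulk RNA, fewer expressing cells and less RNA per cell cannot be told apart.

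KLK3 and KLK2 are neighbours on the same strand. In the gene models of the count files KLK3 (ENSG00000142515.14) lies at 50854915 to 50860764 and KLK2 (ENSG00000167751.12) at 50861568 to 50880567. This KLK2 model starts 804 bases after the end of KLK3. The 250 bases upstream of their RefSeq starts (GRCh38.p14, plus strand) are shown because these promoters are alike in sequence while the transcripts behaved differently. The capitals mark the longest stretch that the 2 promoters share without a mismatch.
KLK3, chr19:50854665-50854914: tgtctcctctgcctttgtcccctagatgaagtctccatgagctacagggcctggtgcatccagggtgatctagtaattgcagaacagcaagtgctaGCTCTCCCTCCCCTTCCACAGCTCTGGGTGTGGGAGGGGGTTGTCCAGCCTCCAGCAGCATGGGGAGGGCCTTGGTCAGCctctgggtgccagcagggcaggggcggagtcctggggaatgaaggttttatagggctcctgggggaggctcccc
KLK2, chr19:50873189-50873438: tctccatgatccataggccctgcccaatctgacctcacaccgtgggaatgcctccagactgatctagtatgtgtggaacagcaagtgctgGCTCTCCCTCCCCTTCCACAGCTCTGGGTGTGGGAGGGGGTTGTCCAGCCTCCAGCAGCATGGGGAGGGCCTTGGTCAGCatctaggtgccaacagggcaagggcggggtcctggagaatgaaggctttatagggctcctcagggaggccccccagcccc

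The stretches were identical at 205 of 259 aligned columns, or 79.2%. The shared stretch was 80 bases long, at positions -154 to -75 from the start of KLK3 and -160 to -81 from the start of KLK2. The RefSeq start of KLK2 used here, just after 50873438, lies inside the longer gene model of the count files. The 804 bases are thus not the distance from KLK3 to this start. None of 4417 windows of 75 bases, the read length, in the KLK3 transcript was identical to one of KLK2, and 1.68% were within 3 mismatches, so few reads could be placed in the wrong gene. The remaining tested members were KLK15 (ENSG00000174562.13, 50825289 to 50837213) and KLK4 (ENSG00000167749.11, 50906352 to 50910738), both on the minus strand. No exon of these 4 genes overlapped another gene, although strand was not used in the counting.

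Only 4 of the 10 members, KLK2, KLK3, KLK4 and KLK15, passed the filter on low counts, and these made up nearly all kallikrein RNA. The members together took 1.00% ± 0.02 of all fragments in VCaP-CT with 10 nM T, 0.616% ± 0.007 in VCaP-CT with 0.1 nM T, 0.641% ± 0.012 in depleted VCaP-T and 1.17% ± 0.01 in VCaP-T with 10 nM T (SD, n = 3 libraries each). KLK2 gave most of these in every library. By count it was the 4th most abundant of all genes in VCaP-CT with 10 nM T, the 6th in VCaP-CT with 0.1 nM T and in depleted VCaP-T, and the 5th in VCaP-T with 10 nM T. KLK3 ranked 360th in VCaP-CT with 10 nM T, 4354th in VCaP-CT with 0.1 nM T, 69th in depleted VCaP-T and 23rd in VCaP-T with 10 nM T. KLK4 stayed between 582nd and 918th, and KLK15 between 10446th and 11966th.

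Levels are given in normalized counts, which are fragment counts scaled to a common effective library size. KLK3 had 14774, 13909 and 14949 normalized counts in VCaP-CT with 10 nM T and 1641, 1648 and 1683 in VCaP-CT with 0.1 nM T. It had 36620, 48934 and 36337 in depleted VCaP-T and 79374, 78074 and 77235 in VCaP-T with 10 nM T. No 2 groups overlapped, and every VCaP-CT library, with either level of T, lay below every VCaP-T library. The high value within the depleted VCaP-T libraries was that of replicate 2.

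KLK2 was ordered differently. It had 349169, 334347 and 351466 normalized counts in VCaP-CT with 10 nM T and 206132, 202392 and 202377 in VCaP-CT with 0.1 nM T. It had 173679, 180305 and 169914 in depleted VCaP-T and 315247, 308682 and 312364 in VCaP-T with 10 nM T. The libraries with 10 nM T were all above those with 0.1 nM T, whichever the line.

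KLK4, a trypsin-like protease also needed for tooth enamel, had 8706, 8329 and 9604 normalized counts in VCaP-CT with 10 nM T and 8209, 8118 and 7887 in VCaP-CT with 0.1 nM T. It had 6377, 6428 and 6972 in depleted VCaP-T and 9909, 9289 and 9013 in VCaP-T with 10 nM T. Its highest library was 1.55 times its lowest, the smallest such ratio of the 4 genes, where KLK2 had 2.07, KLK15 2.79 and KLK3 48.4, and the depleted VCaP-T libraries were its lowest.

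KLK15 had 176, 187 and 177 normalized counts in VCaP-CT with 10 nM T and 113, 105 and 93.5 in VCaP-CT with 0.1 nM T. It had 176, 261 and 193 in depleted VCaP-T and 230, 243 and 199.9 in VCaP-T with 10 nM T. VCaP-CT with 0.1 nM T was lowest and the other groups lay close to or across each other. Replicate 2 again gave the highest value of the depleted VCaP-T group.

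**Figure D1:**
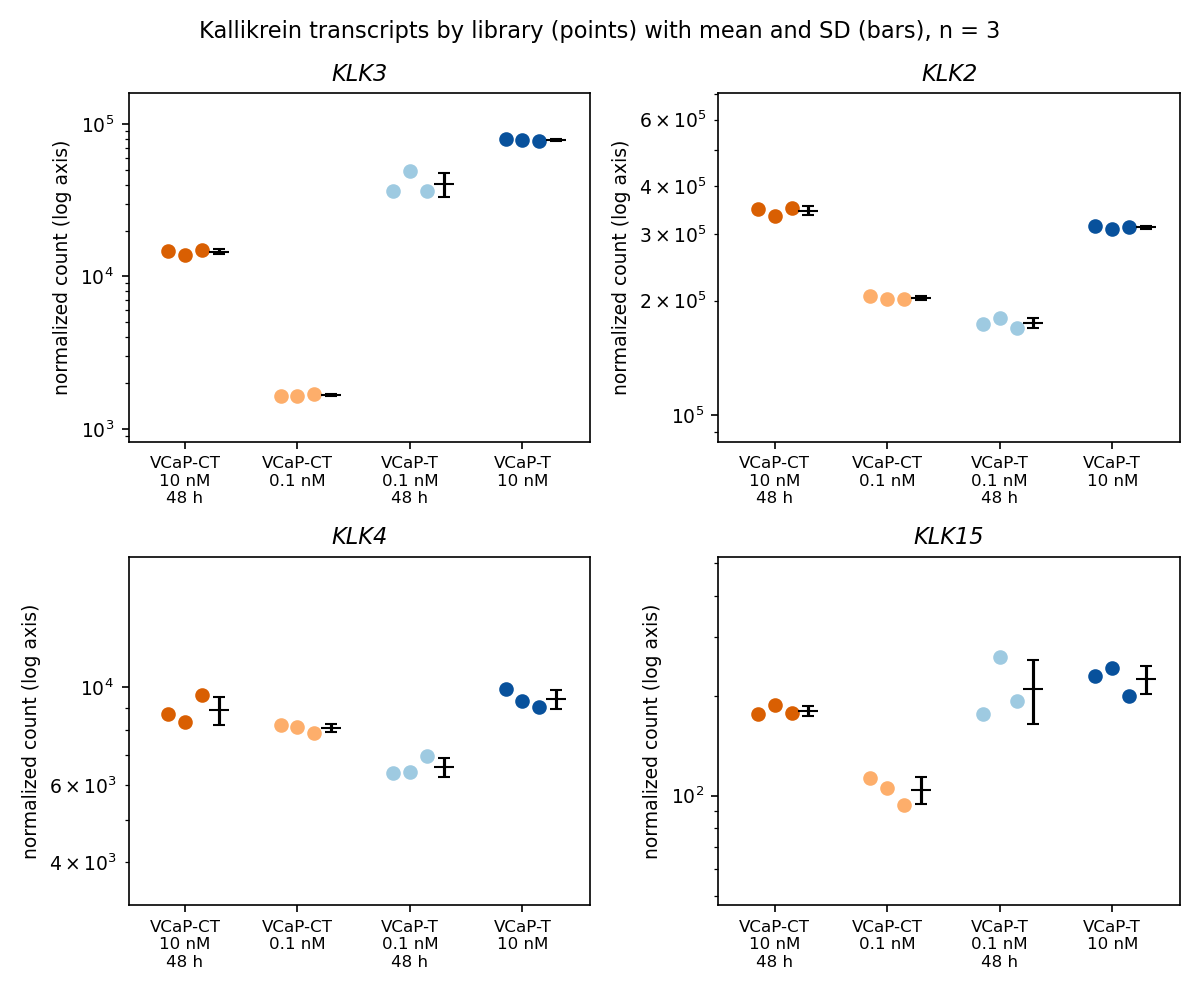
Normalized counts (log axis) of KLK3, KLK2, KLK4 and KLK15 in the 4 groups of 3 libraries; points are libraries and the bar beside them is the mean with its SD. KLK3 means run from 1657 in VCaP-CT with 0.1 nM T to 78228 in VCaP-T with 10 nM T, while KLK2 means run from 174633 to 344994.

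Levels were also taken per kilobase of annotated exon, over all transcripts of a gene, which can exceed the length of the transcript made. On this scale KLK2 was the highest member in every group and KLK15 the lowest of the 4. In VCaP-T with 10 nM T the levels were 48811 ± 515 normalized counts per kb for KLK2, 16863 ± 232 for KLK3, 4860 ± 237 for KLK4 and 97.9 ± 9.6 for KLK15 (SD, n = 3). In VCaP-CT the places of KLK3 and KLK4 were reversed on this scale. KLK4 stood at 4589 ± 339 per kb against 3135 ± 120 for KLK3 at 10 nM T, and at 4171 ± 86.0 against 357 ± 4.90 at 0.1 nM T. At 10 nM T the order rests on the lengths used, as KLK3 had more normalized counts than KLK4 (means of 14544 and 8880). At 0.1 nM T KLK4 was also higher in normalized counts (8071 against 1657). KLK3 reached 5.81% of the per-kilobase level of KLK2 in VCaP-CT with 10 nM T, 1.12% in VCaP-CT with 0.1 nM T, 32.0% in depleted VCaP-T and 34.5% in VCaP-T with 10 nM T.

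The remaining 6 members were at the limit of detection. Over all 12 libraries KLK5 had 6 counts, KLK6 8, KLK7 1, KLK11 18 and KLK12 1, with at most 5 in any library. KLK10, a gene of normal epithelia, had 68. Its counts were 2, 2 and 0 in VCaP-CT with 10 nM T, 5, 3 and 4 in VCaP-CT with 0.1 nM T, 12, 10 and 6 in depleted VCaP-T and 7, 9 and 8 in VCaP-T with 10 nM T. These raw counts were too low for the filter, and the difference between the lines was not tested. The 6 genes summed to 1 to 2 counts per library in VCaP-CT with 10 nM T, 5 to 6 in VCaP-CT with 0.1 nM T, 12 to 15 in depleted VCaP-T and 13 to 15 in VCaP-T with 10 nM T. A count of 0 allows up to 3 counts, or a CPM of 0.0735 to 0.0994, for counting error only. Part of the exons of KLK6 (20.3%), KLK5 (12.2%), KLK12 (9.04%) and KLK10 (6.23%) overlap other genes, where fragments were not counted.

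Depletion asks what VCaP-T cells do in the first 48 h after T is lowered. KLK3, KLK2 and KLK4 fell and KLK15 did not pass the test. Of the 10 members 3 were lower and 0 higher at an adjusted p under 0.01, where 3.83% of the 19162 genes tested were lower and 6.15% higher. KLK3 averaged 40631 ± 7192 normalized counts at 0.1 nM T and 78228 ± 1078 at 10 nM T, which is a log2 fold change of -0.95 with an SE of 0.11 and an adjusted p of 9.31e-05 (quasi-likelihood test of edgeR, Benjamini-Hochberg adjustment over all genes tested). Without the library that stood apart it was -1.10, and the values for KLK2, KLK4 and KLK15 were -0.86, -0.50 and -0.29, with the same 3 members called, but 12.6% of the genes then tested were lower and 14.4% higher. KLK2 averaged 174633 ± 5261 at 0.1 nM T and 312098 ± 3290 at 10 nM T, which is a log2 fold change of -0.84 with an SE of 0.07 and an adjusted p of 1.07e-05 (edgeR). KLK4 changed less, with 6592 ± 329 normalized counts in depleted cells, 9404 ± 459 with 10 nM T, and a log2 fold change of -0.51 with an SE of 0.08 and an adjusted p of 0.000777 (edgeR). KLK15 had 209.8 ± 45.3 at 0.1 nM T and 224 ± 22 at 10 nM T, and its 95% interval of -0.43 to 0.22 on the log2 scale included 0. With the 6 libraries of this comparison fitted alone, only KLK2 kept an adjusted p under 0.01, and those of KLK3 and KLK4 were 0.0161 and 0.0254. No member changed by more than 1 on the log2 scale with all libraries, so 0 met the full thresholds of the study, which 3.14% of the genes tested met.

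Rechallenge asks whether the castration-resistant line still responds to T. KLK3, KLK2 and KLK15 rose within 48 h and KLK4 did not pass the test. Thus 3 of the 10 members were higher and 0 lower, where 7.07% of the genes tested were higher and 7.19% lower. KLK3 averaged 14544 ± 557 normalized counts at 10 nM T and 1657 ± 22.7 at 0.1 nM T, 8.77-fold higher, at a log2 fold change of 3.13 with an SE of 0.11 and an adjusted p of 8.17e-09 (edgeR). Of all genes tested 52 had a larger log2 fold change. KLK2 averaged 344994 ± 9292 at 10 nM T and 203634 ± 2163 at 0.1 nM T, which is a log2 fold change of 0.76 with an SE of 0.07 and an adjusted p of 1.12e-05 (edgeR). KLK15 averaged 179.9 ± 5.96 with 10 nM T and 104 ± 9.82 with 0.1 nM T, a log2 fold change of 0.79 with an SE of 0.16 and an adjusted p of 0.00306 (edgeR). This call was close to the threshold: leaving out any 1 of 5 of the 6 VCaP-CT libraries took the adjusted p to 0.0109 to 0.0189. KLK4 had a log2 fold change of 0.14 with a 95% interval of -0.03 to 0.31. At the full thresholds of the study, met by 5.12% of the genes tested, only KLK3 was left.

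**Figure D2:**
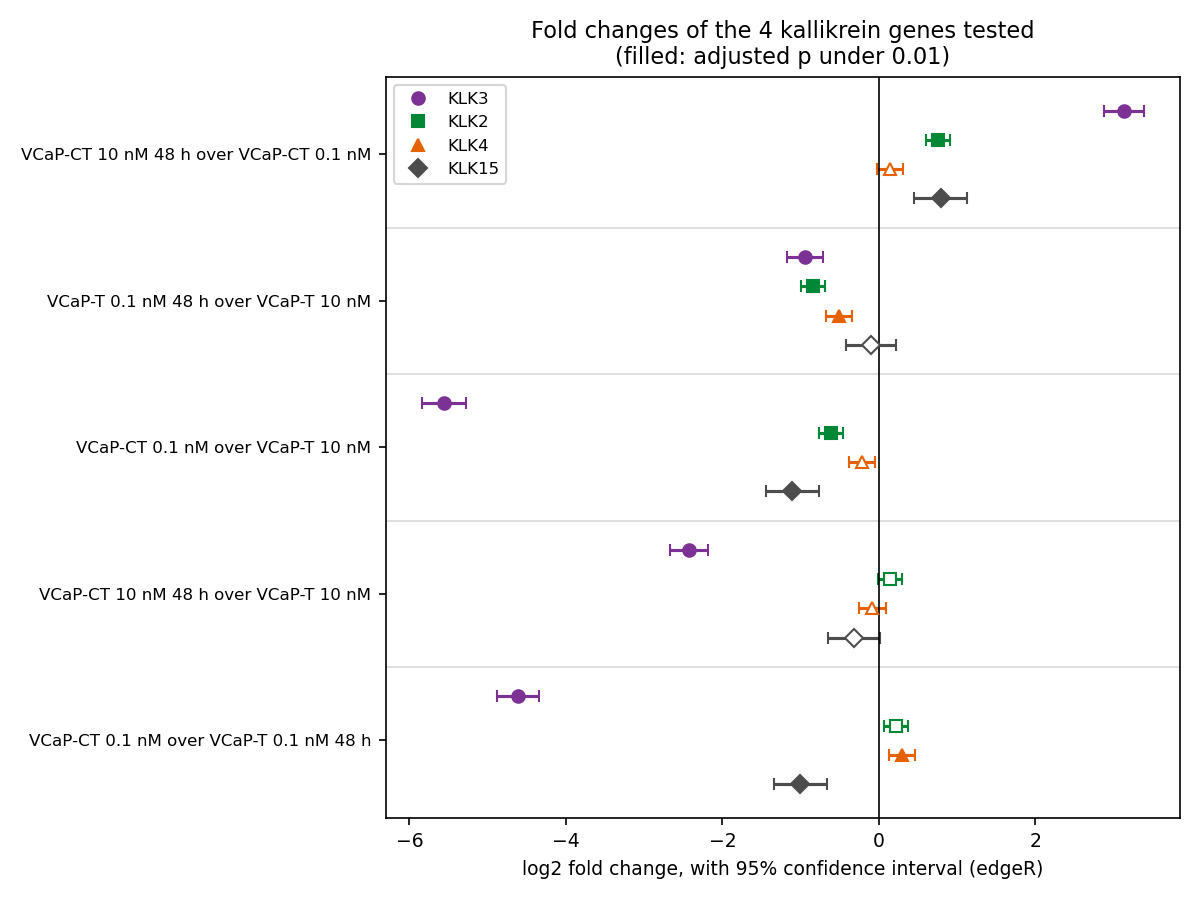
Log2 fold changes (x axis, edgeR) of KLK3, KLK2, KLK4 and KLK15 in 5 comparisons, with 95% confidence intervals from all 12 libraries; filled symbols have an adjusted p under 0.01. The KLK3 change is 3.13 on rechallenge and -0.95 on depletion, and -5.56 between the lines in their maintenance media, while KLK2 and KLK4 stay within 1 of 0.

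The lines were first compared in the media they were kept in, which differ in T as well as in the line. KLK3, KLK15 and KLK2 were lower in VCaP-CT with 0.1 nM T than in VCaP-T with 10 nM T. Of the 10 members 3 were lower and 0 higher, where 15.7% of the genes tested were lower and 14.8% higher. KLK3 was 47.2-fold lower, a log2 fold change of -5.56 with an SE of 0.13 and an adjusted p of 3.91e-11 (edgeR), and 75 of the 19162 genes had a more negative one. KLK15 was 2.15-fold lower, a log2 fold change of -1.11 with an SE of 0.15 and an adjusted p of 0.000111 (edgeR). KLK2 was 1.53-fold lower, a log2 fold change of -0.62 with an SE of 0.07 and an adjusted p of 2.01e-05 (edgeR). KLK4 had a log2 fold change of -0.22 with an adjusted p of 0.0355 by edgeR, and with only the 6 libraries of the comparison the adjusted p was 0.00019. KLK3 and KLK15 also met the full thresholds of the study, as did 12.7% of the genes tested.

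KLK3 was lower in VCaP-CT at either concentration of T. At 10 nM T, KLK3 was the single member called, 5.38-fold lower in VCaP-CT than in VCaP-T at a log2 fold change of -2.43 with an SE of 0.11 and an adjusted p of 1.26e-08 (edgeR). There, 13.2% of the genes tested were lower and 12.0% higher. KLK2 had a log2 fold change of 0.14 with a 95% interval of -0.01 to 0.30, and DESeq2 called it with an adjusted p of 0.00449. KLK4 lay at -0.08 (95% interval -0.25 to 0.08) and KLK15 at -0.32 (-0.64 to 0.01). These cells had been at 10 nM T for 48 h in VCaP-CT and throughout in VCaP-T, so the time at this level also differs.

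At 0.1 nM T, KLK3 was 24.5-fold lower in VCaP-CT than in depleted VCaP-T, at a log2 fold change of -4.62 with an SE of 0.12 and an adjusted p of 1.25e-10 (edgeR). KLK15 was lower as well, by 2.01-fold, at a log2 fold change of -1.004 with an SE of 0.16 and an adjusted p of 0.000264 (edgeR). KLK4 was 1.22-fold higher at a log2 fold change of 0.29 with an SE of 0.08 and an adjusted p of 0.00902 (edgeR), a call that was lost in several other settings. Together 3 members were called, 2 of them lower, where 29.5% of the genes tested were called and 16.4% were lower. KLK2 was at 0.22 (95% interval 0.07 to 0.37, adjusted p = 0.0225), and its adjusted p was 8.14e-06 once depleted replicate 2 was left out. The values for KLK3, KLK15 and KLK4 without that library were -4.46, -0.81 and 0.28, and all 4 genes were then called, where 24.4% of the genes tested were lower and 23.2% higher.

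The size of the response to T was then compared between the lines, as the log2 difference of 10 nM over 0.1 nM T in VCaP-CT minus that in VCaP-T. The VCaP-CT response follows 48 h of added T and the VCaP-T response 48 h of withdrawal. KLK3 alone was called, with 2.19 (SE 0.15, edgeR adjusted p = 2.08e-05), so its fold change with T in VCaP-CT was 4.56 times that in VCaP-T. Of all genes tested 0.804% were called higher and 0.162% lower, and 82 had a larger value. Without depleted replicate 2 the KLK3 value was 2.03, and 5.62% of the genes tested were called higher and 1.77% lower. For KLK2 the value was -0.08 with a 95% interval of -0.29 to 0.14. KLK4 had -0.37 (adjusted p = 0.106), which became -0.36 with an adjusted p of 0.00421 without depleted VCaP-T replicate 2. KLK15 had 0.69 (95% interval 0.22 to 1.16, adjusted p = 0.135).

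Because KLK3 and KLK2 were read from the same library, their ratio does not depend on the scaling of libraries. KLK3 gave 4.23, 4.16 and 4.25 fragments per 100 KLK2 fragments in VCaP-CT with 10 nM T and 0.796, 0.814 and 0.832 in VCaP-CT with 0.1 nM T. It gave 21.1, 27.1 and 21.4 in depleted VCaP-T and 25.2, 25.3 and 24.7 in VCaP-T with 10 nM T. The 27.1 was that of replicate 2, and the other depleted libraries lay just below those of VCaP-T with 10 nM T, whereas the VCaP-CT groups stood well apart. Over both levels of T the log2 ratio was lower in VCaP-CT than in VCaP-T by a difference of -3.70 (two-sided exact permutation of the line within each T level, p = 0.005, the smallest that its 400 permutations can give, adjusted p = 0.01 over 6 ratio tests). The change with T was unlike in the 2 lines: at 10 nM T the mean log2 ratio was higher than at 0.1 nM T by 2.37 in VCaP-CT and by 0.12 in VCaP-T, and this difference of 2.25 was not tested on the ratio. Averaged over both lines it was 1.25 (exact permutation within each line, p = 0.02, adjusted p = 0.03). Without depleted VCaP-T replicate 2 the change in VCaP-T was 0.24, the average 1.31 and the line difference -3.64 (exact permutation, each p = 0.005, adjusted p = 0.0075).

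KLK4 per KLK2 behaved in another way. It was 2.57 ± 0.14 fragments per 100 in VCaP-CT with 10 nM T, 3.96 ± 0.06 in VCaP-CT with 0.1 nM T, 3.78 ± 0.28 in depleted VCaP-T and 3.01 ± 0.13 in VCaP-T with 10 nM T (SD, n = 3). The log2 ratio at 10 nM T was below that at 0.1 nM T by a difference of -0.48 (exact permutation p = 0.005, adjusted p = 0.01), and between the lines the difference was -0.08 (p = 0.255). Without depleted VCaP-T replicate 2 these differences were -0.50 (exact permutation p = 0.005) and -0.10 (p = 0.125).

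KLK15 gave 0.0504, 0.0559 and 0.0503 fragments per 100 KLK2 fragments in VCaP-CT with 10 nM T and 0.0548, 0.0520 and 0.0462 in VCaP-CT with 0.1 nM T. It gave 0.101, 0.145 and 0.113 in depleted VCaP-T and 0.0729, 0.0786 and 0.0640 in VCaP-T with 10 nM T. The depleted VCaP-T libraries were highest, replicate 2 above the others, and every VCaP-CT library lay below every VCaP-T library. The log2 ratio differed between the lines by -0.84 (exact permutation p = 0.005, adjusted p = 0.01). With 10 nM against 0.1 nM T it was 0.03 in VCaP-CT and -0.73 in VCaP-T, a difference of 0.76 that was not tested, and the average of -0.35 over both lines did not pass the test (exact permutation p = 0.065, adjusted p = 0.078). Without depleted replicate 2 the line difference was -0.77 (exact permutation p = 0.005), the change in VCaP-T -0.58 and the average -0.27 (p = 0.105).

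**Figure D3:**
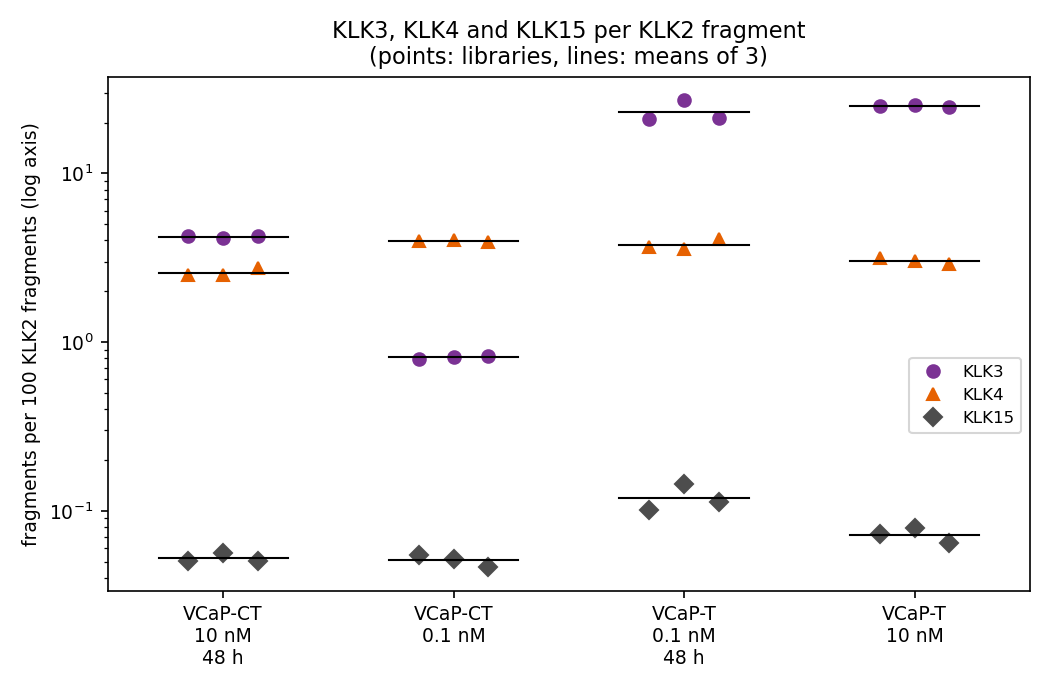
Fragments of KLK3, KLK4 and KLK15 per 100 fragments of KLK2 (log axis) in the 4 groups; points are libraries and lines the means of 3. KLK3 per KLK2 has means of 4.21 and 0.814 in VCaP-CT at 10 and 0.1 nM T and of 23.2 and 25.1 in VCaP-T at 0.1 and 10 nM T.

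Among all genes tested, the log2 CPM values most like KLK3 over the 12 libraries were those of GLB1L3 (Pearson r = 0.992), ENSG00000279095 (r = 0.992), LYN (r = 0.991), TMEM121B (r = 0.991) and CCDC47 (r = 0.99). KLK15 ranked 200th in likeness to KLK3 (r = 0.944), KLK2 6678th (r = 0.276) and KLK4 8917th (r = 0.0521). The genes most like KLK2 were DPAGT1 (r = 0.984), NSUN2 (r = 0.983), GMPPB (r = 0.982), PDE12 (r = 0.98) and POP1 (r = 0.979), with KLK4 at rank 418 (r = 0.856). These values describe 12 libraries in 4 groups, which share line and T level.

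Around the cluster, 39 other genes lay within 200 kb of its ends and 11 of them were tested. Here and in the lists that follow, counts of called genes stand beside the shares of all genes tested. On depletion 6.15% were higher and 3.83% lower, or 14.4% and 12.6% without depleted VCaP-T replicate 2. On rechallenge 7.07% were higher and 7.19% lower, and between the lines in the maintenance media 14.8% and 15.7%. On depletion 4 of the 11 were lower and 0 higher (5 and 0 without depleted VCaP-T replicate 2), and on rechallenge 4 were higher and 0 lower. In the maintenance media 7 were lower in VCaP-CT and 0 higher. SMIM47, ACP4 and ENSG00000268375 overlap in span but not in exons, and SNORD88A lies within the span of C19orf48P. Unspliced reads of such a gene may be counted for its neighbour, so these genes need not be separate signals. ACP4, a testicular acid phosphatase gene that starts at -64.5 kb from the start of KLK3, had a mean of 171 normalized counts in depleted VCaP-T and 686 at 10 nM T (log2 fold change -2.00), and 899 in VCaP-CT with 10 nM T against 321 at 0.1 nM T (log2 fold change 1.49). SMIM47, at -78.8 kb, had log2 fold changes of -2.38 on depletion and 1.79 on rechallenge. Unlike KLK3, both were higher in VCaP-CT than in depleted VCaP-T, with log2 fold changes of 0.90 and 1.11 (0.87 and 0.92 without depleted replicate 2). An unnamed gene on the other strand, ENSG00000267968.1, lies at 50830530 to 50851089 and overlaps the span of KLK15 only in part. It had 96.7 ± 5.5 normalized counts in VCaP-CT with 10 nM T and 20.1 ± 2.4 in VCaP-CT with 0.1 nM T. The values were 20.2 ± 4.0 in depleted VCaP-T and 30.4 ± 3.7 in VCaP-T with 10 nM T. Its difference in response was 1.65 (adjusted p = 0.00744 by edgeR), or 1.499 without depleted replicate 2. Strand was not used, so within the overlap its reads and those of unspliced KLK15 cannot be told apart.

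Of 6 further kallikrein genes of the locus, KLK1, KLK14 and the pseudogene KLKP1 were tested and KLK8, KLK9 and KLK13 were not. KLKP1, between KLK2 and KLK4, was higher on rechallenge (log2 fold change 0.73) and lower in VCaP-CT in the maintenance media (-0.67). On depletion it was called, at -0.41, only once depleted VCaP-T replicate 2 was left out. KLK14 was lower in VCaP-CT than in VCaP-T in the maintenance media (-0.87) and at 10 nM T (-1.19), and without depleted replicate 2 also at 0.1 nM T (-0.83). KLK1, the tissue kallikrein, had 0 to 13 counts per library and was called in no comparison.

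**Figure D4:**
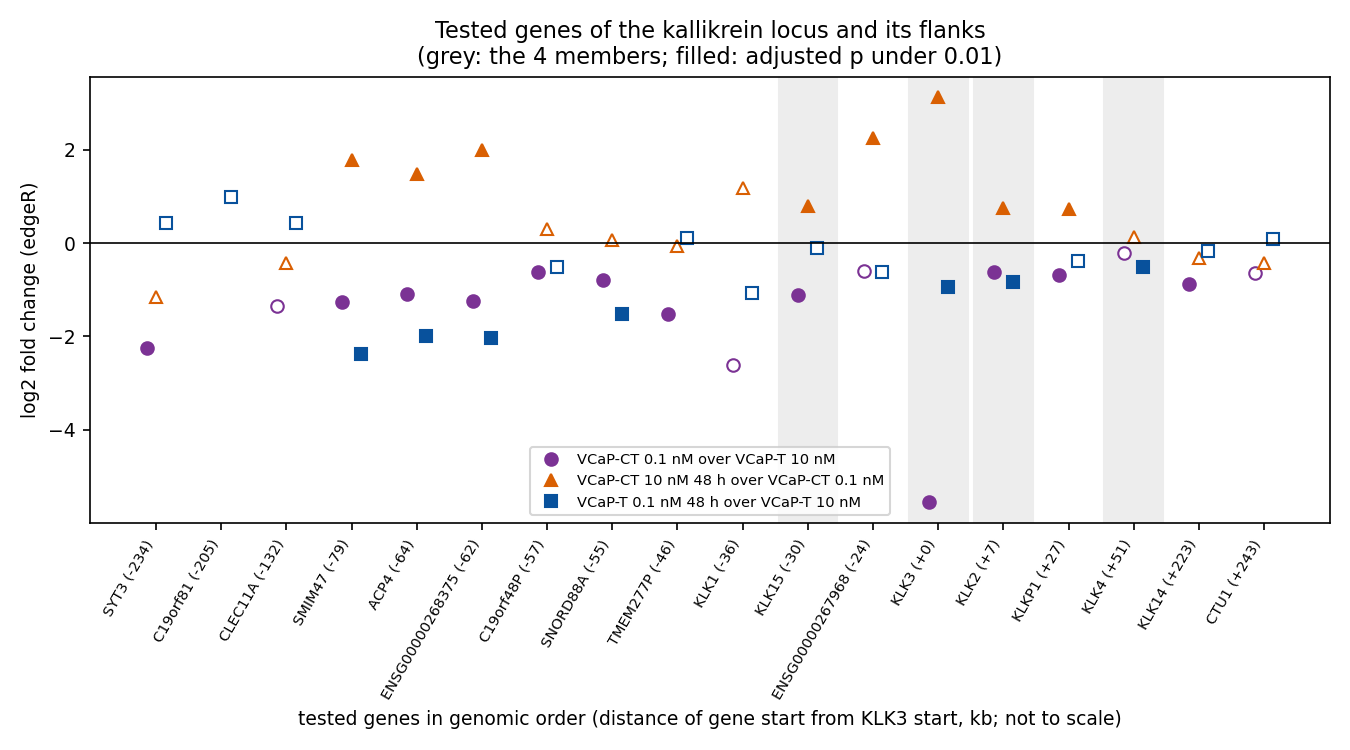
Log2 fold changes (edgeR) of the tested genes of the kallikrein locus and of its flanks, in genomic order with the distance of each gene start from that of KLK3 in kb, for VCaP-CT over VCaP-T in the maintenance media, rechallenge and depletion; filled symbols have an adjusted p under 0.01, grey bands mark the 4 tested members and folds against a group at 0 are left out. KLK3 has the most negative line difference plotted, -5.56, and the highest rechallenge value, 3.13.

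Of 20 listed inhibitors of kallikreins 10 were tested, and on depletion 4 were higher and 0 lower, where 6.15% of all genes tested were higher and 3.83% lower. SERPINA4, SPINK1, SPINK5 and SERPINA5 had log2 fold changes of 1.55, 1.39, 0.70 and 0.68. SPINK1, a Kazal-type trypsin inhibitor, had 2425, 5089 and 2355 normalized counts in depleted VCaP-T and 1223, 1233 and 1298 in VCaP-T with 10 nM T, and the 5089 was that of replicate 2. Without that library the values of SERPINA4, SPINK1, SPINK5 and SERPINA5 were 1.66, 0.93, 0.70 and 0.64, these 4 were still called, and the counts were 5 higher and 1 lower, where 14.4% of the genes then tested were higher and 12.6% lower. SERPINA5, the protein C inhibitor that also binds KLK3, averaged 447 ± 23.1 normalized counts in VCaP-CT with 0.1 nM T and 71.1 ± 7.2 in VCaP-T with 10 nM T, a log2 fold change of 2.65. SLPI, a leukocyte protease inhibitor, ran the other way, with 68.1 ± 11.3 in VCaP-CT with 0.1 nM T and 358 ± 7.7 in VCaP-T with 10 nM T (-2.39), and rose on rechallenge (2.81). SPINK1 (-2.36) and SERPINA1 (-1.78) were also lower in VCaP-CT, and in the maintenance media 3 inhibitors were higher and 3 lower. On rechallenge 1 inhibitor, SLPI, was higher and 2 were lower. The lower ones were SPINK5 (-0.82) and SERPINA4, which went from a mean of 9.36 normalized counts to 0.

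Of 19 listed substrates and receptors, 12 were tested; 3 were higher and 0 lower on depletion (3 and 2 of 13 without depleted VCaP-T replicate 2), and 2 were higher and 5 lower on rechallenge. IGFBP3, the insulin-like growth factor binding protein that KLK3 cleaves, averaged 4922 ± 192 normalized counts in depleted VCaP-T and 499.6 ± 31.1 at 10 nM T (log2 fold change 3.30). In VCaP-CT it averaged 378 ± 26.2 at 10 nM T and 1840 ± 108 at 0.1 nM T (-2.28). IGFBP5 and fibronectin (FN1) also rose on depletion (1.51 and 1.08) and fell on rechallenge (-2.55 and -1.49). The semenogelin gene SEMG2 rose on rechallenge (2.67), at no more than 14.5 normalized counts on average in any group, and its reads may be split with its near copy SEMG1.

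Of 7 other trypsin-like proteases, all tested, 1 was higher and 1 lower on depletion, with or without depleted VCaP-T replicate 2, and likewise on rechallenge. TMPRSS2, whose promoter is fused to ERG in this line, moved in the same directions as KLK3: 5563 ± 153 normalized counts in depleted VCaP-T against 13195 ± 143 at 10 nM T (-1.25), and 12757 ± 350 in VCaP-CT with 10 nM T against 3498 ± 130.5 at 0.1 nM T (1.87). Between the lines at 10 nM T its log2 fold change was -0.05 and was not called, where that of KLK3 was -2.43. TMPRSS2 was lower in VCaP-CT in the maintenance media (-1.92) and at 0.1 nM T (-0.67, and -0.69 without depleted replicate 2). Its difference in response was also called higher (0.62, and 0.64 without that library). PRSS3, mesotrypsin, was lower in VCaP-CT than in VCaP-T in the maintenance media (-4.40) and at 10 nM T (-4.96), although related trypsin genes could share its reads.

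All 13 listed factors that bind or serve the KLK3 enhancer were tested. On depletion 1 was higher and 1 lower, and 3 and 3 without depleted VCaP-T replicate 2. In the maintenance media 3 were higher and 1 lower in VCaP-CT, together a share near that of all genes tested (14.8% higher and 15.7% lower). At 10 nM T 3 were higher and 0 lower, where 12.0% of the genes tested were higher and 13.2% lower. At 0.1 nM T 5 were higher and 0 lower, where 29.5% of the genes tested were called and 16.4% were lower. Without depleted replicate 2 they were 9 and 1, where 23.2% of the genes then tested were higher and 24.4% lower. GATA2 was higher in VCaP-CT in the maintenance media (1.75), at 10 nM T (1.28) and at 0.1 nM T (1.27), as was the pioneer factor FOXA1 (0.38, 0.32 and 0.35). The coactivator NCOA3 was called in the maintenance media (0.94) and at 0.1 nM T (0.82), and its value without depleted replicate 2 was 0.54 at 0.1 nM T. Whether ERG was higher or lower in VCaP-CT depended on whether both lines had the same T level. It was lower in VCaP-CT in the maintenance media (-0.33), where T differs too, and higher in VCaP-CT at 10 nM T (0.79, edgeR adjusted p = 1.67e-05) and at 0.1 nM T (0.79, edgeR adjusted p = 1.40e-05). It fell on depletion (-1.12) and rose on rechallenge (1.12). HOXB13 was called in no comparison, with or without depleted replicate 2.

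Between the lines in the maintenance media, other secreted or surface products of prostate epithelium did not follow KLK3 as a group. Of 12 listed 10 were tested, and there 5 were higher and 1 lower in VCaP-CT. The lower one, MSMB, had 21.0 ± 2.6 normalized counts in VCaP-CT with 0.1 nM T and 297 ± 6.4 in VCaP-T with 10 nM T (-3.82). ACP3, prostatic acid phosphatase, differed little, with 132763 ± 724 in VCaP-CT with 0.1 nM T and 107602 ± 3786 in VCaP-T with 10 nM T (0.30). FOLH1, the prostate-specific membrane antigen, rose on depletion (3.46, and 3.43 without depleted VCaP-T replicate 2) and fell on rechallenge (-4.04). On rechallenge 3 of the 10 were higher, as KLK3 was, and 1 was lower. The higher ones were TGM4 (5.07, from a mean of 0.958 normalized counts), AZGP1 (1.16) and CRISP3 (0.63). For the difference in response AZGP1 alone was called (1.42), where 0.804% of all genes tested were higher. Without depleted replicate 2, 3 were higher and 1 lower, where 5.62% of all genes tested were higher and 1.77% lower.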

How the data were processed

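The authors deposited 1 count file per library, with raw fragment counts for each gene. Per the labels and the file headers, poly(A) RNA was prepared with the TruSeq stranded mRNA kit, sequenced as 75 bp paired ends on a HiSeq instrument, aligned to GRCh38 with STAR 2.5.4b and counted over exons of a Gencode annotation with featureCounts 1.6.2, without strand and without fragments that hit several genes or places. The authors' table of normalized counts was not used.

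Counts of the 12 libraries were tested in R 4.3.3 with edgeR 4.0.16: scaling by TMM, filterByExpr by group, 1 quasi-likelihood model of the 4 groups with no block (8 residual degrees of freedom) and Benjamini-Hochberg adjustment over the 19162 genes tested. A gene was called at an adjusted p under 0.01. The study's full thresholds also ask that the log2 fold change exceeds 1 in size and that the group medians differ by over 13 normalized counts. SE and 95% intervals were derived from the F statistic. DESeq2 1.42.0 was an alternative, beside other size factors, no filter, a replicate block, fewer libraries and leaving out each library. Ratios were tested by exact permutation over libraries. The script was tested on simulated data.

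The named genes were all members, some of the called genes with the largest change in each list, and the 5 genes most alike to KLK3 and to KLK2. Up to 4 were named a list and comparison. Some called genes with larger changes than those named were left out, such as KNG1 (-2.19) and KLKB1 (-3.03) on rechallenge. Other genes beside these were chosen after their values were seen. Symbols of 41885 of 58381 genes came from an Ensembl table, and promoters from RefSeq (GRCh38.p14). The members and lists were chosen with earlier results of these data known. 1 gene of these lists and what depends on it are not reported here.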

Additional observations from a re-analysis of the deposited data

Results flagged for a closer look

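The response of KLK3 to T differed between the lines: the log2 difference of 10 nM over 0.1 nM T in VCaP-CT minus that in VCaP-T was 2.19 (adjusted p = 2.08e-05 by edgeR). It was higher in VCaP-CT in every setting tried, between 2.03 and 2.27. Groups of 3 libraries are too small for a test of single outlying libraries.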

How the results depend on the processing

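The counts of called members kept their value or moved by less than 1.5 times in most settings. On depletion 3 members became 1 when only the 6 libraries of the comparison were fitted and 0 at the full thresholds of the study, which also took rechallenge to 1. Between the lines at 10 nM T, DESeq2 called 2 members in place of 1. When each library was left out in turn, the counts ran from 3 to 3 on depletion, 2 to 3 on rechallenge, 3 to 3 in the maintenance media, 1 to 1 at 10 nM T, 2 to 4 at 0.1 nM T and 1 to 2 for the difference in response, where the 2nd was KLK4 without depleted VCaP-T replicate 2. KLK15 on depletion ran from -0.29 (without depleted VCaP-T replicate 2) to 0.0195 (without replicate 1) and was called in no case. Calls of KLK4 at 0.1 nM T and of KLK15 on rechallenge were the ones most often lost, and the cause was not tested. KLK3 kept its direction in each setting. Same-numbered libraries of different groups did not deviate together (correlations of -0.168 to 0.055, 0 of 18 above 0.1). With 3 libraries a group, this cannot show whether same-numbered libraries were handled together. With the replicate number as a block the count at 0.1 nM T was 2, with an adjusted p of 0.0194 for KLK4, and the other counts were the same. Depth limits KLK5, KLK6, KLK7, KLK10, KLK11 and KLK12, which did not pass the filter and were not tested. Without depleted VCaP-T replicate 2, chosen after seeing the data for the lists, calls over all genes on depletion came to 14.4% higher and 12.6% lower. With it they were 6.15% and 3.83%. Called enhancer factors on depletion came to 6 without it and 2 with it. At 0.1 nM T they came to 10 without it, 9 of them higher in VCaP-CT, and to 5 with it, all higher. There 23.2% of all genes tested were higher and 24.4% lower without it, and 29.5% were called with it. No ratio changed its side of an adjusted p of 0.05.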
